A study of Homo sapiens with 16 samples.

Results

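The proteasome genes of human myeloma cells were followed across 16 RNA-seq libraries. The genes are 34 of the 23459 entries of the deposited table. They are the entries named PSMA, PSMB, PSMC or PSMD with a number, with a mean of at least 1 FPKM (fragments per kilobase of exon and per unit of sequencing depth) over the 16 libraries. Of 39 such names, 5 were left out by name (PSMA8, PSMB8, PSMB9, PSMB10 and PSMB11, which encode inducible or tissue-specific subunits), and 0 fell below the minimum. Of the 34 genes, 14 belong to the core particle, 7 in its alpha ring (PSMA1 to PSMA7) and 7 in its beta ring (PSMB1 to PSMB7). The other 20 carry regulatory particle names. They comprise the 6 ATPases PSMC1 to PSMC6, 11 non-ATPase subunits, and PSMD5, PSMD9 and PSMD10. These last 3 are known as assembly chaperones of the regulatory particle that are not part of the finished proteasome, so the name constitutive subunit does not hold for them.

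The libraries came from 3 established myeloma lines, KMS18, MM.1s and RPMI8226, and from an RPMI8226 derivative overexpressing the anti-apoptotic protein Mcl1 (called the Mcl1 line here). Each of these 4 backgrounds was given the empty vector pLK0.1 (Vec) or 1 of 3 short hairpin RNA (shRNA) treatments. These were directed at CD28, at CD86 or at Gapdh, the last as a second control. CD28 is a costimulatory receptor and CD86 one of its ligands. There was 1 library for each background and shRNA, so the lines served as replicates of a knockdown. All Vec, Gapdh, CD28 and CD86 libraries therefore share the vector treatment, and no untreated cells were analysed here. How many hairpins were used per target, and whether the Mcl1 line is a single clone, is not given in the sources used here. Separate cultures are not described either, so the p-values refer to the spread between libraries, which may be technical.

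Reads per library ranged from 4690942 to 7172402, of which 3914513 to 5900955 fell in genes, and in every background the CD28 shRNA library was the shallowest. A proteasome gene had between 134 reads (PSMA6) and 4365 reads (PSMD2) in a library. In the order MM.1s, RPMI8226, KMS18 and Mcl1 line, CD28 mRNA under its own shRNA stood at 65.1%, 79.3%, 70.8% and 67.5% of Vec, and CD86 mRNA at 44.1%, 76.3%, 44.4% and 49.4%. GAPDH mRNA under its shRNA stood at 53.0%, 34.3%, 10.7% and 21.3%. MCL1 mRNA was at 127 to 173 FPKM in the Mcl1 line and at 49.6 to 62.7 FPKM in RPMI8226. The 8 plasma cell and myeloma markers summed to 631 to 1887 FPKM. The T cell sum was 0.314 to 7.56 FPKM over 6 genes, with CD3D at 0 throughout. CD3E made up most of the highest sum, at 1.08 to 7.21 FPKM in KMS18 and 0.314 to 3.91 in MM.1s. CD8A was at 1.22 to 2.38 FPKM in RPMI8226 and 0.850 to 1.97 in the Mcl1 line. The myeloid sum over 6 genes was 0 to 1.80 FPKM, and the stromal sum over 6 genes was 0.0597 to 0.841 FPKM.

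The proteasome degrades proteins marked with ubiquitin. Its core particle is a barrel in which the outer alpha rings gate the entrance and the inner beta rings carry the protease sites, of which PSMB5 has the chymotrypsin-like, PSMB6 the caspase-like and PSMB7 the trypsin-like activity. The regulatory particle binds ubiquitin chains, removes them and feeds the unfolded protein into the barrel by means of its ring of ATPases. Plasma cells make large amounts of secreted immunoglobulin, and myeloma is treated with proteasome inhibitors such as bortezomib, which binds PSMB5. When the proteasome is inhibited, the transcription factor NFE2L1 raises the expression of its subunit genes through antioxidant response elements (AREs) in their promoters, while the factor NF-Y binds CCAAT boxes.

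Promoter windows from RefSeq (GRCh38.p14, 250 bases before to 50 after each start) matched 29 of the 34 genes, and PSMA7, PSMB1, PSMB6, PSMB7 and PSMD4 had none. The ARE-like motif TGACNNNGC, searched on both strands, occurred in a window of 9 of the 29 genes (31.0%), namely of 2 of 10 core and 7 of 19 regulatory genes. It occurred in a window of 19.7% of the 8482 matched genes tested below. Of all 35116 windows, taken singly, 13.3% had it, which is not a share of genes. A CCAAT box on either strand occurred for 16 of the 29 genes (55.2%), against 43.5% of the 8482 genes and 34.6% of single windows. Overlaps between matches of the 2 motifs were not removed. Sequences are given for a match of PSMA4, PSMD3, PSMD5 and PSMD9, which differ in the comparisons that follow. They are a selection, because other genes with a match, PSMB3 and PSMC4 among them, also differ in those comparisons. A further match of PSMD3, 33 bases after the start, and of PSMD9, 149 bases before it, both on the minus strand, were left out. Capitals mark the motif, each sequence is written 5′ to 3′ on the strand given, and a match is a description of these letters only.
PSMA4, chr15:78540650-78540678, plus strand, motif 126 bases before the RefSeq start: gtgggcacgaTGACTCTGCaccgcctcct
PSMD3, chr17:39980760-39980788, plus strand, 37 bases before the start: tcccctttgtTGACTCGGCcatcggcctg
PSMD5, chr9:120843038-120843066, minus strand, 134 bases before the start: tggctacagtTGACACGGCcctaacggag
PSMD9, chr12:121888678-121888706, plus strand, 102 bases before the start: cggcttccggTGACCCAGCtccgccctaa

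All 34 genes were expressed in every library. In the core particle the mean over 16 libraries ranged from 21.2 FPKM (PSMB2) to 221 FPKM (PSMA7), with a median of 60.9 FPKM. In the regulatory particle it ranged from 11.5 FPKM (PSMC6, an ATPase) to 157 FPKM (PSMD4, a ubiquitin receptor), with a median of 62.0 FPKM. Subunits that enter the particle in equal numbers therefore differed in mRNA level per exon length. That level depends on the exon length the authors used, which was 9903 bases for PSMB2, 4126 for PSMB1 and 5235 for PSMA2, against 2701, 928 and 1487 bases in the principal GENCODE v29 transcript. The highest mean was 19.2 times the lowest by FPKM and 20.2 times by principal transcript length. Over the 34 genes, Spearman's rho of mean FPKM with the exon length was -0.68, given as a description because the length also enters FPKM. Reads of look-alike genes cannot be set apart for the 19 genes that have a named pseudogene, nor reads of the opposite strand for PSMA3, PSMD3 and PSMD6, which have a named antisense gene.

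The ratio of the highest to the lowest library was smallest for the ATPase PSMC5, whose values lay between 54.8 and 69.7 FPKM, and largest for PSMB1, with values from 21.1 to 54.6 FPKM. These ratios were 1.27 and 2.59, with a median of 1.79 in the core particle and 1.77 in the regulatory particle. The plot of all values shows blocks of colour by line rather than by shRNA, except for single genes such as PSMD10 and PSMD3 under CD86 shRNA.

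**Figure D1:**
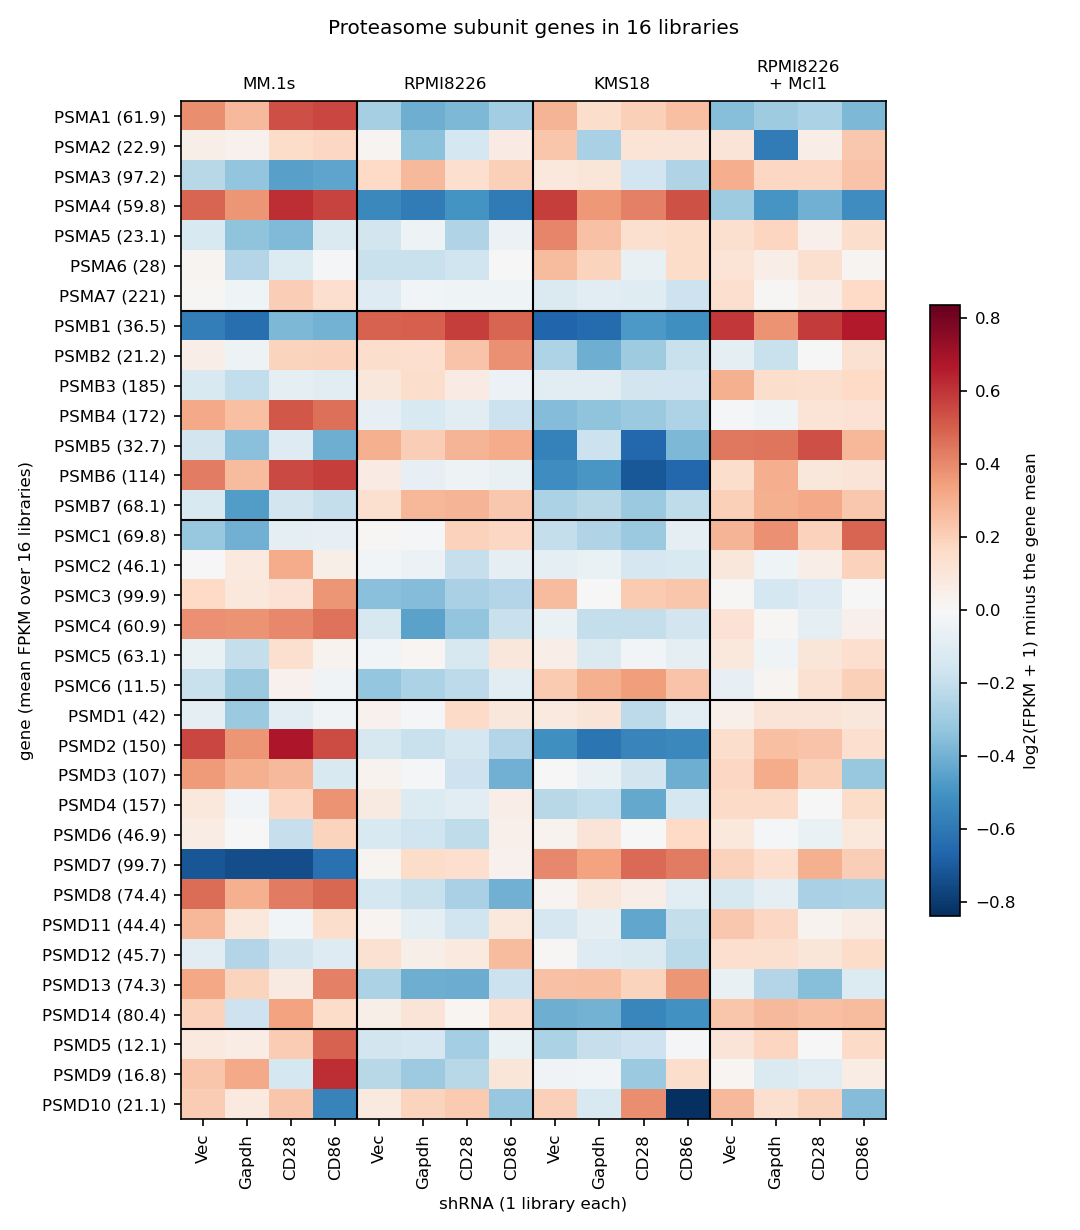
Each cell shows a gene's log2(FPKM + 1) in 1 library minus the gene's mean over 16 libraries. Columns are libraries by background and shRNA, rows are genes with their mean FPKM, and lines part the alpha ring, beta ring, ATPases, non-ATPases and assembly chaperones. PSMB1 is low in all MM.1s and KMS18 libraries, PSMA4 is low in all RPMI8226 and Mcl1 line libraries, and PSMD10 is lowest in the KMS18 library with CD86 shRNA (11.1 FPKM).

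CD28 shRNA was compared with Vec to ask what lowering the receptor does to these genes. No proteasome gene passed the threshold in either direction in the 3 parental lines, where 2.83% of all genes tested did. The 3 catalytic subunits stayed close to Vec. PSMB5 went from 28.3 to 29.3 FPKM in MM.1s, from 39.0 to 38.6 in RPMI8226 and from 21.0 to 19.7 in KMS18, and its log2 difference was -0.02 with a 95% interval from -0.31 to 0.27. PSMB6 differed by -0.06 and PSMB7 by 0.03 on the log2 scale, with intervals from -0.27 to 0.15 and from -0.18 to 0.24.

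With limma and Benjamini-Hochberg adjustment over 11316 genes, 0 of 34 proteasome genes were past an adjusted p of 0.05, and of all genes tested 0.716% were higher and 2.11% lower. 2 of the 34 had an unadjusted p under 0.05, and limma-voom on recovered reads also called 0. The median log2 difference was -0.01 over the core and -0.02 over the regulatory genes, beside -0.003 over all genes tested. The median size of the difference, whatever its sign, was 0.07 over the 34 genes and 0.15 over all genes tested, which were not matched for expression level. The 95% intervals of the 34 genes reached up to 0.29 to either side of the estimate.

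The lowest of the 34 was PSMD11, a lid subunit of the regulatory particle. From Vec to CD28 shRNA it went from 53.7 to 43.4 FPKM in MM.1s, from 44.8 to 39.1 in RPMI8226, from 39.8 to 32.4 in KMS18, and from 51.6 to 45.0 in the Mcl1 line. The CD28 library had the lowest PSMD11 value of its 4 libraries in every background. In the 3 parental lines the log2 difference was -0.26 ± 0.08 (SE, limma adjusted p = 0.114). With the Mcl1 line added as a background it was -0.24 (limma adjusted p = 0.0296), lower in 4 of 4 backgrounds, and a second lid subunit, PSMD13, also passed at -0.19 (limma adjusted p = 0.0444, lower in 4 of 4), in a fit that called 9.13% of all genes. PSMD13 went from 91.5 to 76.8 FPKM in MM.1s, from 60.5 to 54.5 in RPMI8226, from 86.4 to 82.9 in KMS18 and from 69.9 to 56.6 in the Mcl1 line. Both calls therefore rest on the Mcl1 line being included. That line derives from RPMI8226, so the 4 backgrounds are not independent, though the fit treats them as if they were. The shallower CD28 libraries move with this contrast, and their part in it was not tested. The highest was PSMB1, a beta ring subunit without a protease site, at 0.16 (limma adjusted p = 0.302).

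CD86 shRNA against Vec gave 2 lower proteasome genes of 34, where 0.566% of all genes tested were lower. Both carry regulatory particle names, and no other of the 34 passed the threshold. They were PSMD10, the assembly chaperone also called gankyrin, and PSMD3, a lid subunit. In MM.1s PSMD10 was at 23.9 FPKM with Vec, 21.8 with Gapdh, 24.3 with CD28 and 13.6 with CD86 shRNA. In RPMI8226 the values in the same order were 21.8, 23.5, 24.2 and 16.3 FPKM, and in KMS18 they were 23.8, 18.8, 27.2 and 11.1 FPKM. In the Mcl1 line they were 25.1, 22.7, 23.7 and 15.8 FPKM. The 4 CD86 libraries lay below all 12 others, without overlap between backgrounds, on between 137 and 351 reads a library. The log2 difference from Vec in the 3 parental lines was -0.74 ± 0.13 (SE, limma adjusted p = 0.0326, lower in 3 of 3 lines).

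PSMD3 was at 136, 130, 128 and 96.9 FPKM in MM.1s with Vec, Gapdh, CD28 and CD86 shRNA. It was at 108, 105, 93.9 and 79.9 FPKM in RPMI8226, at 106, 102, 95.0 and 79.7 in KMS18, and at 119, 132, 122 and 84.8 in the Mcl1 line. Within each background the CD86 library was the lowest, though the MM.1s value of 96.9 lay above the CD28 values of RPMI8226 and KMS18. The log2 difference was -0.44 ± 0.06 (SE, limma adjusted p = 0.0171, lower in 3 of 3 lines).

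Of all genes tested, 0.627% were past the threshold for CD86 shRNA (0.566% lower and 0.0619% higher), beside 2 of 34 proteasome genes, both lower. The medians were 0.02 over the core and 0.01 over the regulatory genes, beside 0.02 over all genes. The authors' deposited table gave PSMD10 a log2 fold change of -0.78 (FDR 0.000322) and PSMD3 one of -0.47 (FDR 0.00299). It had 2 of the 34 genes at an FDR under 0.05, where 2.04% of its 14975 entries were. Both limma calls were lost when any 1 line was left out. Adjusted p for PSMD10 was then 0.267 without MM.1s, 0.0733 without RPMI8226 and 0.343 without KMS18, and for PSMD3 0.164, 0.140 and 0.283 (limma), while their differences lay between -0.90 and -0.58 and between -0.46 and -0.42. The PSMD10 call was also lost without the filter on low values (limma adjusted p = 0.0866). With the Mcl1 line added as a background, PSMD3 had a limma adjusted p of 0.000769 and PSMD10 one of 0.00216, each lower in 4 of 4 backgrounds, in a fit that called 2.48% of all genes. The Mcl1 line derives from RPMI8226, so the 4 backgrounds are not independent, though the fit treats them as if they were.

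The highest under CD86 shRNA was PSMD9, the third of the 3 chaperones with PSMD names beside PSMD5 and PSMD10. From Vec to CD86 shRNA it went from 19.5 to 25.8 FPKM in MM.1s, from 13.9 to 17.8 in RPMI8226, from 16.1 to 18.4 in KMS18 and from 16.7 to 17.3 in the Mcl1 line. The CD86 library was the highest of its background in all 4, and the log2 difference of 0.30 did not pass (limma adjusted p = 0.292). Among the catalytic subunits PSMB5 differed by -0.02, PSMB6 by -0.04 and PSMB7 by 0.03, with 95% intervals from -0.31 to 0.27, from -0.25 to 0.17 and from -0.18 to 0.24. In the Mcl1 line no proteasome gene responded to either shRNA differently from the other lines past the threshold. Limma called 0 of 34 for CD28 and 0 of 34 for CD86 shRNA, with 0 at an unadjusted p under 0.05 in either and 0 by limma-voom, and it called 0.00881% and 0% of all genes. For PSMD10 the difference between the CD86 responses was 0.10 with a 95% interval from -0.47 to 0.67.

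**Figure D2:**
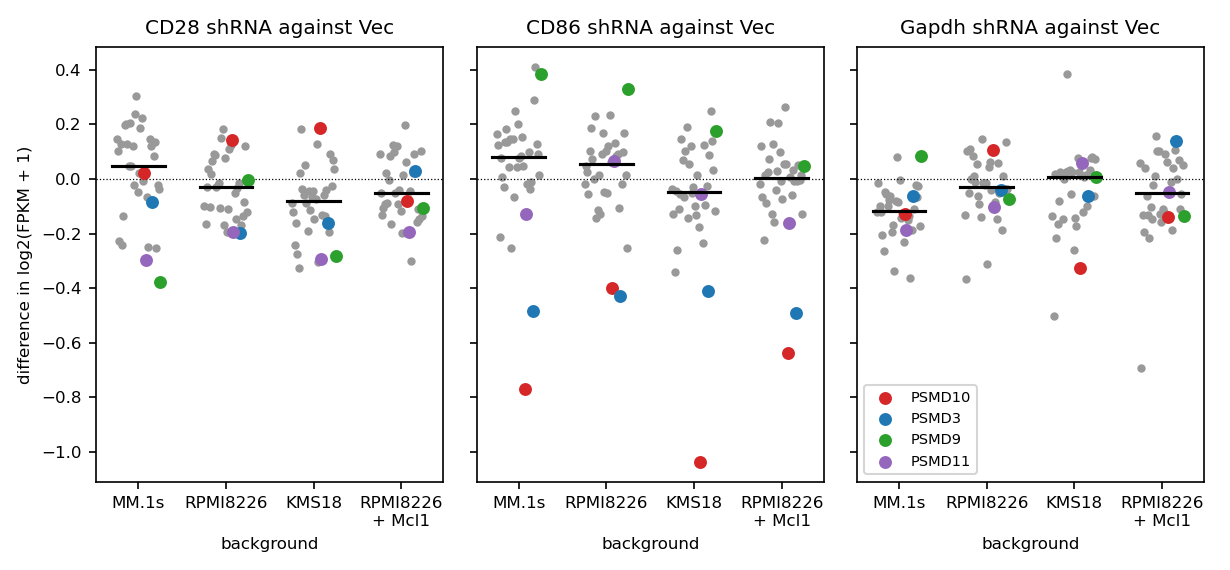
Points are the 34 proteasome genes, each as the difference in log2(FPKM + 1) between the named shRNA and Vec in 1 background (1 library each), and black bars are medians. The 3 panels share the Vec libraries. PSMD10 and PSMD3 lie below the other genes under CD86 shRNA in each background, while under CD28 shRNA PSMD11 is below 0 in all 4.

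CD86 shRNA set directly against CD28 shRNA changed 4 of the 34 genes, all with PSMD names, where 9.51% of all genes tested passed. PSMD10 was lower by a log2 difference of -0.85 ± 0.13 (SE, limma adjusted p = 0.00428) and PSMD3 by -0.29 ± 0.06 (limma adjusted p = 0.0211). PSMD9 was higher at 0.52 ± 0.11 (limma adjusted p = 0.0188) and PSMD13 at 0.25 ± 0.07 (limma adjusted p = 0.0452). Each moved the same way in 3 of 3 lines. Of all genes tested 5.41% were higher and 4.1% lower, so that 2 of 34 in each direction is near the background. For PSMD9 the CD28 values were 14.8 FPKM in MM.1s, 13.9 in RPMI8226 and 13.1 in KMS18, all below the CD86 values given above. These libraries are the same ones set against Vec above, so the comparisons are not independent. In the authors' deposited table PSMD10 (-0.92, FDR 1.76e-06), PSMD9 (0.51, FDR 0.0136) and PSMD3 (-0.33, FDR 0.0329) passed, where 10.3% of its entries did. PSMD13 was lost without the filter on low values (limma adjusted p = 0.0534) and with median-of-ratios scaling (limma adjusted p = 0.0787). Without MM.1s or without KMS18 none of the 4 passed, and without RPMI8226 PSMD10 and PSMD9 did.

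Gapdh shRNA, the second control, changed no proteasome gene past the threshold against Vec. Limma called 0 of 34, with 1 at an unadjusted p under 0.05 and 0 by limma-voom, and it called 0% of all genes tested. Below Vec lay 26 of the 34, as 53.0% of all genes tested did, with a median of -0.07 over the core and -0.08 over the regulatory genes, beside -0.01 over all genes. In the MM.1s pair 32 of 34 lay below Vec with a median of -0.12, beside 51.4% of all genes. In the KMS18 pair 15 of 34 did with a median of 0.01, beside 51.1% of all genes. The lowest was PSMA2, an alpha ring subunit. From Vec to Gapdh shRNA it went from 23.5 to 23.2 FPKM in MM.1s, from 23.0 to 17.6 in RPMI8226, from 26.8 to 18.7 in KMS18 and from 24.5 to 14.8 in the Mcl1 line. The Gapdh library was the lowest of its 4 in every background, the MM.1s gap was small, and the log2 difference of -0.29 did not pass (limma adjusted p = 1.00). The highest, PSMB5, differed by 0.03.

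Between the parental lines the median size of the log2 difference over the 34 genes was 0.22 to 0.32, where it was 0.07, 0.05 and 0.08 for CD28, CD86 and Gapdh shRNA against Vec. PSMD10 went against this order, with -0.08, -0.14 and -0.05 between lines and -0.74 under CD86 shRNA, as did PSMD3, with -0.35, -0.01 and 0.34 between lines and -0.44 under CD86 shRNA. PSMA4, an alpha ring subunit, was at 73.1 to 87.0 FPKM in MM.1s and 72.7 to 84.6 in KMS18, and at 37.0 to 39.5 in RPMI8226 and 38.9 to 45.6 in the Mcl1 line. The beta ring subunit PSMB1 had the opposite order, at 21.6 to 26.0 FPKM in MM.1s and 21.1 to 24.1 in KMS18, and at 48.2 to 51.4 in RPMI8226 and 44.4 to 54.6 in the Mcl1 line. Neither gene's values overlapped between the 2 pairs of backgrounds. PSMD7, a lid subunit that pairs with the deubiquitinase PSMD14, was at 56.7 to 61.6 FPKM in MM.1s, 97.1 to 107 in RPMI8226 and 121 to 133 in KMS18. PSMD2, a scaffold of the regulatory particle base that binds ubiquitin shuttles, ran the other way, at 187 to 232 FPKM in MM.1s, 122 to 131 in RPMI8226 and 94.2 to 101 in KMS18. For both genes the 3 parental lines did not overlap.

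Between KMS18 and MM.1s limma called 5 proteasome genes higher and 15 lower in KMS18, beside 65.3% of all genes tested (30.8% higher and 34.5% lower). None of the 7 beta ring genes was higher and 3 were lower, and of the 7 alpha ring genes 3 were higher and 2 lower. Of the 6 ATPases 1 was higher and 2 lower, and of the 11 non-ATPases 1 was higher and 6 lower. Of the 3 chaperones 0 were higher and 2 lower. The largest log2 differences were 1.12 for PSMD7, 0.47 for PSMA5 and 0.40 for PSMC6 on the higher side, and -1.09 for PSMD2, -1.05 for PSMB6 and -0.70 for PSMB4 on the lower side. PSMB6 was at 66.6 to 77.7 FPKM in KMS18 and at 132 to 164 in MM.1s, and PSMB4, a beta ring subunit without a protease site, was at 131 to 141 and 201 to 242 FPKM. Limma adjusted p for these 6 genes lay between 5.99e-08 (PSMD2) and 0.00228 (PSMC6), and all 4 shRNA pairs had the same direction.

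Between KMS18 and RPMI8226 limma called 10 proteasome genes higher and 14 lower, beside 70.3% of all genes tested (35.2% higher and 35.1% lower). All 7 beta ring genes were lower in KMS18, with PSMB1 at -1.09, PSMB5 at -0.72, PSMB6 at -0.57 and PSMB3, the smallest, at -0.19 (limma adjusted p = 0.0149). The calls of PSMB3 and PSMB4 were lost without the Vec libraries (limma adjusted p = 0.0691 and 0.106) and without the Gapdh libraries (0.0584 and 0.0551). Of the 7 alpha ring genes 4 were higher and 1 lower, with PSMA4 at 1.03 (limma adjusted p = 1.24e-07) and PSMA1 at 0.56. Of the 6 ATPases 2 were higher and 1 lower, and of the 11 non-ATPases 4 were higher and 5 lower, with PSMD13 the highest at 0.58. PSMB5, the target of bortezomib, was at 19.7 to 27.7 FPKM in KMS18 and 36.6 to 39.4 in RPMI8226, without overlap.

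Between MM.1s and RPMI8226 limma called 12 proteasome genes higher and 8 lower in MM.1s, beside 69.1% of all genes tested (35.9% higher and 33.2% lower). The highest were PSMA4 at 1.07, PSMA1 at 0.78 and PSMD2 at 0.72, and the lowest PSMB1 at -1.01, PSMD7 at -0.80 and PSMA3 at -0.56. Limma adjusted p for these 6 lay between 1.18e-07 (PSMA4) and 3.01e-05 (PSMA3). Of the beta ring genes 4 were lower and 2 higher in MM.1s, among them PSMB6 at 0.48 (limma adjusted p = 0.000367). Of the 7 alpha ring genes 2 were higher and 1 lower, and of the 6 ATPases 2 were higher and 1 lower. Of the 11 non-ATPases 4 were higher and 2 lower, and of the 3 chaperones 2 were higher and 0 lower. Compared with all genes, the proteasome genes differed less between lines. The median size of the log2 difference was 0.22, 0.26 and 0.32 over the 34 genes in the 3 comparisons, beside 0.47, 0.54 and 0.50 over all genes tested. The 2 sets were not matched for expression level. All genes tested reach down to a mean of 1 FPKM, beside 11.5 FPKM for the lowest proteasome gene. These are 4 libraries per line with different shRNAs, and line comparisons share their libraries.

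**Figure D3:**
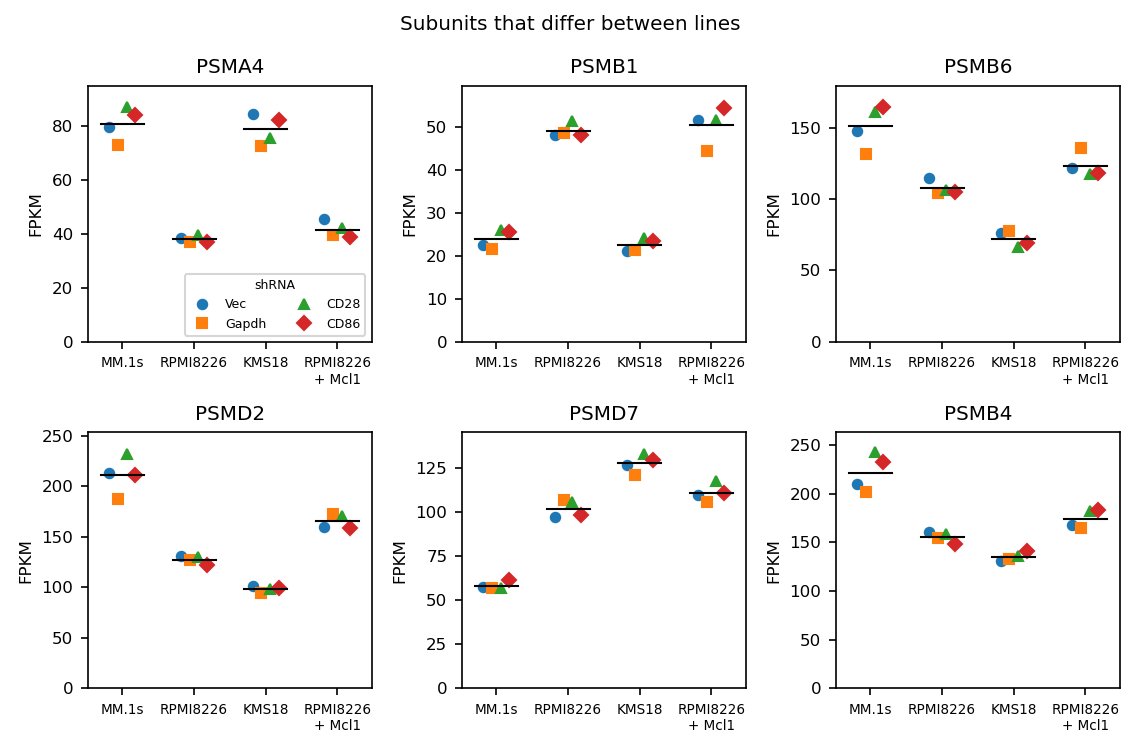
FPKM of 6 proteasome genes in 4 backgrounds, with 1 point per library, symbols for the shRNA and a bar at the mean of 4 libraries. PSMA4 and PSMB1 split the backgrounds in opposite directions, and PSMD2 and PSMD7 order MM.1s, RPMI8226 and KMS18 in opposite ways.

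The median gene of the core and of the regulatory particle also stood differently to each other in the 4 backgrounds. The core median minus the regulatory median, on the log2(FPKM + 1) scale, was 0.14 ± 0.12 in MM.1s and -0.15 ± 0.07 in RPMI8226, and 0.17 ± 0.03 in KMS18 and -0.31 ± 0.12 in the Mcl1 line (SD over 4 libraries). It was above 0 in all 8 libraries of MM.1s and KMS18 and below 0 in all 8 of RPMI8226 and the Mcl1 line. Each median is the mean of the 2 middle genes and is a description. The medians of the genes' own differences ran the other way against RPMI8226. For KMS18 against RPMI8226 the median difference was -0.20 over the core and -0.01 over the regulatory genes, and for MM.1s against RPMI8226 it was -0.03 and 0.16. The order of the median levels therefore does not show that core genes were raised relative to regulatory genes in these lines. The summed core FPKM was 1108 to 1283 in MM.1s and 1110 to 1132 in RPMI8226, and 995 to 1048 in KMS18 and 1182 to 1241 in the Mcl1 line. The regulatory sum was 1337 to 1500 in MM.1s and 1206 to 1251 in RPMI8226, and 1202 to 1271 in KMS18 and 1367 to 1417 in the Mcl1 line. For both sums the Mcl1 line and RPMI8226 did not overlap.

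RPMI8226 overexpressing Mcl1 had higher levels of many proteasome genes than RPMI8226, in both particles. Of the 34 genes 33 had a log2 difference above 0, as 54.0% of all genes tested did, and 18 were higher in all 4 shRNA pairs, as 28.2% of all genes were. Limma called 14 higher and 1 lower, beside 34.4% of all genes tested (19.5% higher and 14.9% lower). The higher genes were 3 of 7 in the alpha ring, 2 of 7 in the beta ring, 4 of 6 ATPases, 4 of 11 non-ATPases and 1 of 3 chaperones. The medians were 0.12 over the core and 0.15 over the regulatory genes, beside 0.03 over all genes tested. These are small differences, of which the largest was 0.37.

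PSMD2, the base scaffold, was at 131, 127, 130 and 122 FPKM in RPMI8226 with Vec, Gapdh, CD28 and CD86 shRNA and at 160, 172, 171 and 159 in the Mcl1 line. The groups did not overlap, and the log2 difference was 0.37 ± 0.04 (SE, limma adjusted p = 0.000383). The ATPase PSMC4 was at 54.3, 43.6, 47.4 and 52.4 FPKM and at 65.1, 60.2, 56.6 and 61.8, again without overlap, at 0.30 ± 0.05 (limma adjusted p = 0.00443). The ATPase PSMC3 was at 77.3, 76.5, 81.6 and 83.0 FPKM and at 99.5, 89.2, 91.6 and 99.1, without overlap, at 0.25 ± 0.04 (limma adjusted p = 0.00463). The other ATPases called were PSMC6 at 0.30 and PSMC1 at 0.25, the latter higher in 3 of 4 pairs. PSMC1 stood at 78.6 FPKM in both lines under CD28 shRNA.

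Of the other subunits, PSMD5 at 0.27, PSMA5 at 0.25, PSMD3 at 0.23, PSMA6 at 0.22, PSMB6 at 0.19, PSMD14 at 0.17, PSMB4 at 0.16, PSMA7 at 0.14 and PSMD4 at 0.14 were higher past the threshold and in all 4 pairs. PSMD5 is an assembly chaperone and PSMD14 the deubiquitinase of the lid. PSMA5 was at 19.0 to 22.1 FPKM in RPMI8226 and 23.6 to 25.9 in the Mcl1 line, and PSMD14 at 79.9 to 87.2 and 92.7 to 95.4, without overlap in either. PSMB6, the caspase-like subunit, was at 104 to 115 and 117 to 136 FPKM. PSMB5 went the same way in 3 of 4 pairs but did not pass, at 0.15 (limma adjusted p = 0.0872), and PSMB7 differed by 0.03 with a 95% interval from -0.06 to 0.11.

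The 1 gene that was lower was PSMB2, a beta ring subunit. It was at 23.3, 23.2, 24.9 and 27.6 FPKM in RPMI8226 and at 19.7, 18.3, 20.9 and 22.9 in the Mcl1 line, lower in 4 of 4 pairs with a log2 difference of -0.26 ± 0.05 (SE, limma adjusted p = 0.00777). Median-of-ratios scaling left 10 of the 14 higher calls and the threshold without a filter 8. PSMA6, PSMA7, PSMB4 and PSMD4 lost their calls under that scaling. With the libraries of 1 shRNA left out at a time 9 to 11 genes were higher. In at least 1 of these 4 fits PSMA6, PSMA7, PSMB4, PSMB6, PSMC1, PSMD3, PSMD4 and PSMD5 lost their calls, while PSMA5, PSMC3, PSMC4, PSMC6, PSMD2 and PSMD14 held theirs and PSMB2 stayed lower. Markers other than proteasome genes moved with this comparison. The sum of 4 mature B cell markers was 9.16 to 13.7 FPKM in RPMI8226 and 0.103 to 0.451 in the Mcl1 line, with MS4A1 carrying nearly all of it. The plasma cell sum of 8 markers was 927 to 1222 and 631 to 863. MZB1 made up most of that sum, at 633 to 868 and 369 to 487 FPKM. CD38 went the other way, at 11.0 to 15.7 and 16.7 to 27.9 FPKM. SDC1, TNFRSF17, IRF4, PRDM1, XBP1 and SLAMF7 overlapped between these backgrounds. The part of the markers in the differences was not tested.

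**Figure D4:**
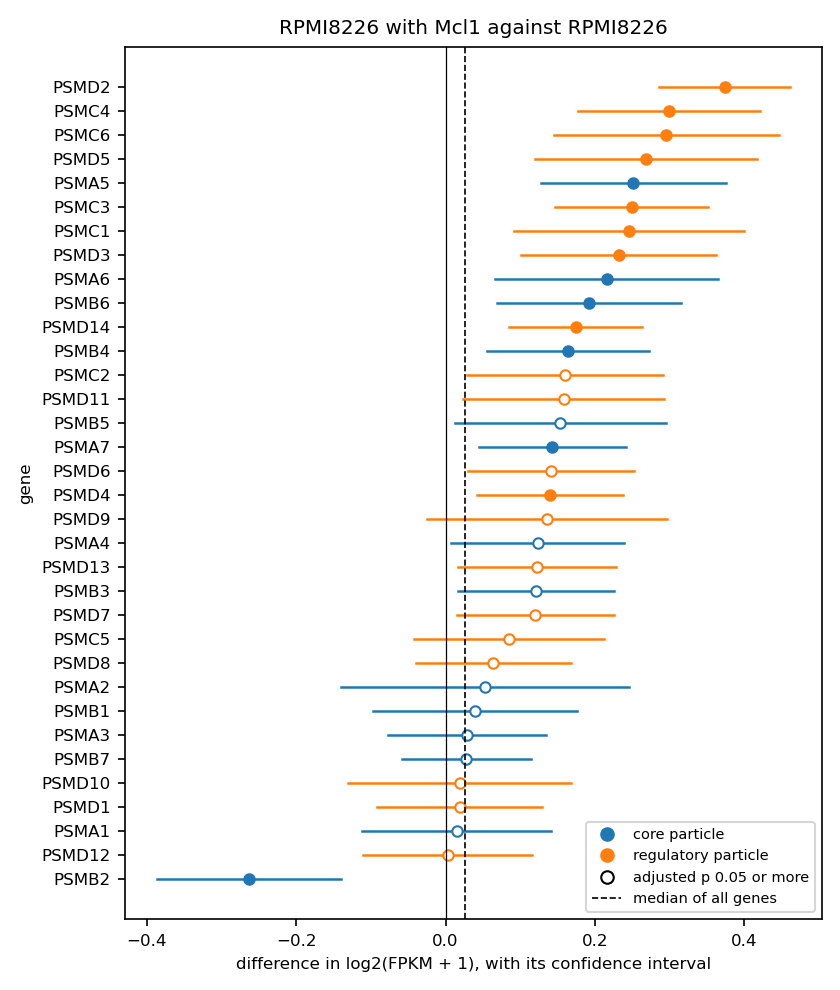
Difference in log2(FPKM + 1) between the Mcl1 line and RPMI8226 for the 34 proteasome genes, with 95% intervals from limma over 8 libraries, filled where the adjusted p is under 0.05. Points right of the solid line are higher in the Mcl1 line. PSMB2 alone lies left of it, and PSMD2 is the highest at 0.37.

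Each catalytic subunit has an inducible counterpart that replaces it in the immunoproteasome, PSMB8 for PSMB5, PSMB9 for PSMB6 and PSMB10 for PSMB7. PSMB5 was at 26.4 ± 2.8 FPKM in MM.1s and 38.4 ± 1.3 in RPMI8226, and 23.1 ± 3.6 in KMS18 and 42.9 ± 3.2 in the Mcl1 line (SD, 4 libraries), and PSMB8 was at 3.01, 2.97, 5.08 and 4.09 FPKM. The inducible gene made up 10.3%, 7.16%, 18.3% and 8.69% of the summed FPKM of this pair. For PSMB9 with PSMB6 the shares were 2.14%, 2.88%, 6.85% and 2.78%, from 3.28, 3.19, 5.28 and 3.51 FPKM of PSMB9. For PSMB10 with PSMB7 they were 31.4%, 21.5%, 33.4% and 19.4%. KMS18 thus had the highest mean share in each pair. Its libraries did not overlap any other background for PSMB8 (12.3% to 23.2%, with MM.1s up to 11.9%) or for PSMB9 (5.78% to 8.03%). For PSMB10 the KMS18 (31.5% to 35.9%) and MM.1s libraries (29.8% to 34.6%) overlapped.

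The inducible genes themselves were higher in KMS18 than in RPMI8226 in 3 of 3 cases, with log2 differences of 0.61 for PSMB8, 0.59 for PSMB9 and 0.36 for PSMB10, and in 2 of 3 cases than in MM.1s, with 0.59 for PSMB8 and 0.55 for PSMB9 (limma adjusted p between 0.00033 and 0.000885 for these 5). Of all genes tested 35.2% and 30.8% were higher in KMS18 in these comparisons. The constitutive partners PSMB5, PSMB6 and PSMB7 were all lower in KMS18 than in RPMI8226, as given above. None of PSMB8, PSMB9 and PSMB10 passed the threshold in a knockdown, which is near the background. Of all genes tested 2.83%, 0.627% and 0% passed for CD28, CD86 and Gapdh shRNA against Vec, and 9.51% for CD86 against CD28 shRNA. In the Mcl1 line PSMB8 was higher than in RPMI8226 at 0.36 (limma adjusted p = 0.0238), a call that was lost without the Vec, the CD28 or the CD86 libraries (limma adjusted p = 0.0859, 0.0638 and 0.0791). Shares compare FPKM, which depends on the exon length used for each gene.

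**Figure D5:**
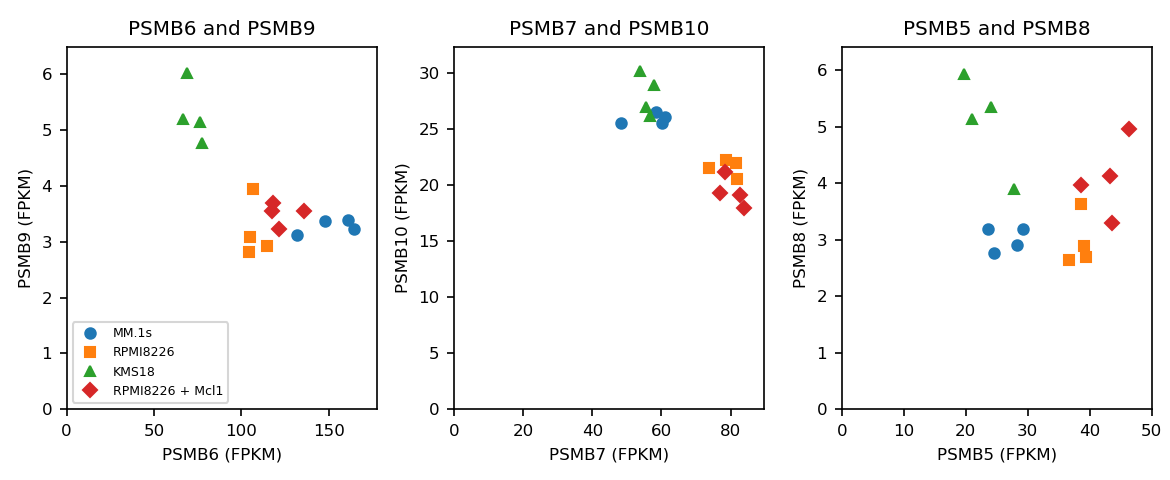
FPKM of the inducible against the constitutive catalytic gene of each pair, with 1 point per library and colour for the background. KMS18 libraries lie highest for PSMB9 at the lowest PSMB6 values, and RPMI8226 and Mcl1 line libraries lie at the highest PSMB7 and lowest PSMB10 values.

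Other genes of the pathway were read from lists of 5 kinds beside the inducible subunits. Under CD28 shRNA the alternative caps and inhibitor had 1 of 6 genes past the threshold, which was lower, and the ubiquitin and shuttle factors 1 of 16, which was higher, where 2.11% of all genes tested were lower and 0.716% higher. The lower one was PSME3, a subunit of a nuclear activator cap of the core particle. From Vec to CD28 shRNA it went from 61.0 to 40.2 FPKM in MM.1s, from 57.5 to 44.9 in RPMI8226, from 86.2 to 64.0 in KMS18 and from 68.0 to 51.2 in the Mcl1 line. Its log2 difference was -0.45 (limma adjusted p = 0.0130), and the CD28 library was the lowest in every background. The higher one was SQSTM1, a ubiquitin-binding autophagy receptor, at 0.46 (limma adjusted p = 0.0448). It went from 40.4 to 61.9 FPKM in MM.1s, from 40.7 to 56.7 in RPMI8226 and from 44.1 to 54.4 in KMS18. Both calls were lost when any 1 line was left out, with limma adjusted p of 0.139, 0.0832 and 0.142 for PSME3 and 0.242, 0.180 and 0.0988 for SQSTM1 without MM.1s, RPMI8226 and KMS18.

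The assembly factors (6 genes), the other regulatory particle subunits (5) and the regulators of proteasome genes (10) had 0 calls under CD28 shRNA. All 5 lists had 0 calls under CD86 shRNA against Vec and under Gapdh shRNA. Of all genes tested 2.83%, 0.627% and 0% passed for CD28, CD86 and Gapdh shRNA, so 0 calls is near the background. The regulator NFE2L1 and the assembly factors PSMG1 to PSMG4, POMP and PAAF1 were among the genes without a call, which is no result about them. CD86 shRNA against CD28 shRNA gave 3 calls over these lists, PSME3 at 0.66, NFYB, a subunit of NF-Y, at 0.67, and SQSTM1 at -0.42 (limma adjusted p = 0.00127, 0.0273 and 0.0300), where 9.51% of all genes tested passed. The PSME3 call held with each line left out. That of NFYB was lost without MM.1s or KMS18 (limma adjusted p = 0.173 and 0.214) and that of SQSTM1 without any 1 of the 3 (0.1004, 0.132 and 0.121).

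In the Mcl1 line against RPMI8226, 3 of 5 other regulatory particle subunits were higher, led by ADRM1, a ubiquitin receptor, at 0.36 (limma adjusted p = 0.00102), where 19.5% of all genes tested were higher and 14.9% lower. Among the ubiquitin and shuttle factors UBQLN4 was higher at 0.50 and UBQLN2 at 0.39. Both carry ubiquitinated proteins to the proteasome. Of the assembly factors 1 of 6 was higher, the chaperone PSMG1 at 0.30, and 1 lower, PAAF1 at -0.28. Of the regulators 1 of 10 was higher, NFE2L1 at 0.21 (limma adjusted p = 0.0388), and 1 lower, NFYC at -0.36. The NFE2L1 call was lost without the Vec, the Gapdh or the CD28 libraries (limma adjusted p = 0.0888, 0.130 and 0.0844) and that of PAAF1 without the CD28 or the CD86 libraries (0.113 and 0.121). The median difference was 0.12 over the 9 proteasome genes with an ARE-like match and 0.14 over the 25 others, including those without a window.

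Several assembly factors differed between lines. All 6 were lower in MM.1s than in RPMI8226, with PSMG4 at -1.62 and PAAF1 at -1.35, where 33.2% of all genes tested were lower. In KMS18 against MM.1s 4 of 6 were higher and 1 lower, where 30.8% and 34.5% of all genes were. In KMS18 against RPMI8226 2 of 6 were higher and 3 lower, where 35.2% and 35.1% of all genes were. PSMG3, a core particle chaperone, was 1 of the 3 lower, at -1.49 (limma adjusted p = 1.84e-07). PSMF1, an inhibitor of the core particle, was lower in KMS18 than in RPMI8226 at -0.96 and than in MM.1s at -0.93. Its list of alternative caps and inhibitor went both ways, with 2 of 6 higher and 3 lower in each of these comparisons. NGLY1, an enzyme that takes part in activating NFE2L1, was higher in MM.1s than in RPMI8226 at 1.52, while NFE2L1 was higher in KMS18 than in RPMI8226 at 1.01 (limma adjusted p = 2.05e-07 and 3.57e-05). The 10 regulators went both ways, with 3 higher and 3 lower in the first comparison and 4 and 4 in the second. Of all genes tested 35.9% were higher and 33.2% lower in the first, and 35.2% and 35.1% in the second.

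Proteasome genes varied together only weakly from library to library. With the mean of each background taken out, the median Pearson correlation over 16 libraries was 0.29 for the 91 pairs of core genes, 0.14 for the 190 pairs of regulatory genes and 0.21 for the 280 mixed pairs, beside 0.005 over all pairs of genes tested. Without that step the values were 0.03 for core pairs, 0.13 for regulatory pairs and 0.13 for mixed pairs, beside 0.003 over all pairs, so that core pairs had the highest median only within backgrounds. Libraries share depth and treatment, and the pairs of all genes were not matched for expression level, so these values are a description. The genes that followed the mean of the other 33 most closely were PSMD14 at 0.75, PSMA6 at 0.71 and PSMA1 at 0.70. PSMD10 at -0.42 and PSMD3 at -0.36 were the lowest. Only the background mean was taken out, so the lower values of these 2 genes under CD86 shRNA enter their correlations. Their low correlations are therefore not a separate result from that difference.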

How the data were processed

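The authors deposited 1 table of FPKM for 23459 gene entries in 16 libraries with exon lengths. Beside these it holds, per the file headers, log2 fold changes, log2 CPM, a likelihood ratio score, p-values and false discovery rates of 3 comparisons. Tools named in the submitters' processing notes are edgeR 3.12.1, R 3.2.2, TopHat2 2.0.13 and Picard, with hg19, GRCh37 and mm9 as builds. Their roles and a strand setting are not stated there, so look-alike and antisense genes may share reads. Libraries were made with the Illumina TruSeq mRNA protocol, per the labels' protocols. No coordinates of the table's build were used.

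The deposited FPKM values were tested with limma 3.58.1 in R 4.3.3 (eBayes with trend) on log2(FPKM + 1), a scale that understates changes of low genes. Genes needed a mean of at least 1 FPKM over the libraries fitted, p-values were two-sided with Benjamini-Hochberg adjustment over all genes tested, and the threshold was 0.05. Knockdowns and lines were compared in 12 libraries with terms for shRNA and line (11316 genes, 6 residual degrees of freedom), so the line pairs the libraries. As a check, deviations from shRNA means correlated at r 0.87 to 0.95 in all 18 same-line pairs. For the Mcl1 line against RPMI8226, 8 libraries were fitted with shRNA as the other term (11024 genes, 3 residual degrees of freedom), and its responses were compared with those of the other lines over 16 libraries (11349 genes). There the spread comes from the other lines. FPKM times exon length gave whole reads for 100% of values within 0.02 of a read, which were used for depth and for limma-voom. All 34 genes passed the filter. Values are given in full for the catalytic subunits, for genes past the threshold in the knockdowns or the Mcl1 line and for the highest and lowest of each comparison, and in line comparisons for up to 3 in each direction. From other lists up to 2 genes are named. The genes and lists were chosen with earlier results of these data known, so no test was made over a list. Of the gene identifiers 23308 matched RefSeq. The tests were checked on simulated data. Some results for genes outside the proteasome list are not reported here.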

Additional observations from a re-analysis of the deposited data

How the results depend on the processing

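The knockdown results rest on few libraries. Leaving out the pairing by line (no replicate block) gave 0 proteasome genes lower under CD86 shRNA and 0 in either direction for CD86 against CD28 shRNA, and leaving out the pairing by shRNA gave 7 higher and 0 lower in the Mcl1 line. Leaving out 1 line gave 0 lower under CD86 shRNA in each case, and 0 to 1 higher and 0 to 1 lower for CD86 against CD28 shRNA. Without a filter on low values 1 gene was lower under CD86 shRNA, 1 higher for CD86 against CD28 shRNA and 8 higher in the Mcl1 line, where leaving out 1 shRNA gave 9 to 11. Median-of-ratios scaling gave 1 higher for CD86 against CD28 shRNA, a core median there of -0.042 and one of 0.087 in the Mcl1 line, which was 0.093 with limma-voom and 0.090 to 0.13 with 1 shRNA left out. Adding the Mcl1 line, which derives from RPMI8226 and is not an independent line, gave 2 lower genes under CD28 shRNA. The regulatory median under CD28 shRNA was -0.087 without MM.1s and up to 0.0071 with another line left out.

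Differences near 0 changed sign. With 1 line left out, the CD28 shRNA difference ranged from -0.051 to 0.018 for PSMB5, from -0.15 to 0.0071 for PSMB6 and from -0.034 to 0.064 for PSMB7. PSMB5 there was 0.0098 with median-of-ratios scaling, 0.0068 with limma-voom and 0.011 with the Mcl1 line added. The CD86 shRNA difference ranged from -0.12 to 0.10 for PSMB5, from -0.14 to 0.0098 for PSMB6 and from -0.0055 to 0.075 for PSMB7, and PSMB6 was 0.0054 against the mean of Vec and Gapdh. PSMB5 under Gapdh shRNA ranged from -0.14 to 0.15. PSMB7 in the Mcl1 line was -0.0073 with median-of-ratios scaling and -0.0074 with limma-voom. The core minus the regulatory difference was -0.0082 as a mean over genes and -0.032 to 0.011 with a line left out (-0.022 without KMS18) under Gapdh shRNA, -0.049 without the chaperones for KMS18 against MM.1s, and -0.079 to -0.018 with 1 shRNA left out in the Mcl1 line. Over all genes, calls ranged from 0 to 1036 for CD28 shRNA (320 as reported), from 0 to 282 for CD86 shRNA (71), from 0 to 2 for Gapdh shRNA (0), from 137 to 2122 with the block (0 without it) for CD86 against CD28 shRNA (1076) and from 2459 to 4539 in the Mcl1 line (3793). Interaction calls reached 113 and 115 without a filter. The cause of these changes was not tested, beyond the fewer libraries or genes each has by construction. In the line comparisons 9 of 9 named calls between KMS18 and MM.1s, 14 of 16 between KMS18 and RPMI8226 and 10 of 10 between MM.1s and RPMI8226 kept their side of the threshold under every alternative run, and PSMB3 and PSMB4 did not. Counts there fell with 1 shRNA left out, to 11 to 14 lower genes between KMS18 and MM.1s and 10 to 12 between KMS18 and RPMI8226. In the Mcl1 line 10 of 23 named calls held under every alternative. The planned edgeR test on recovered reads was not run, and limma-voom, chosen after seeing the data, stood in for it.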

Other observations

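Line differences of some proteasome genes resembled those of their chromosomal neighbours. For 32 of the 34 genes the difference was set beside the median of 10 flanking tested genes, 5 on each side in RefSeq order. PSMB6 differed by -1.05 between KMS18 and MM.1s where its neighbours had a median of -1.11, and PSMA5 by 0.47 where they had 0.47. PSMA1 differed by 0.78 between MM.1s and RPMI8226 where its neighbours had 0.93. PSMA4, at 1.07 in that comparison, stood apart from neighbours at 0.11, as did PSMD2 at -1.09 between KMS18 and MM.1s from neighbours at -0.40 and PSMD7 at 1.12 from neighbours at 0.45. As a description across genes, which are not independent, Pearson's r between a gene and its neighbours was 0.75 over the 32 proteasome genes and 0.40 over all genes for KMS18 against MM.1s. It was 0.43 and 0.37 for KMS18 against RPMI8226, 0.52 and 0.35 for MM.1s against RPMI8226, and 0.53 and 0.20 for the Mcl1 line. By rank the excess was seen for KMS18 against MM.1s only, where Spearman's rho was 0.69 over the proteasome genes and 0.45 over all genes. It was 0.38 and 0.46 for KMS18 against RPMI8226, 0.41 and 0.42 for MM.1s against RPMI8226, and 0.24 and 0.25 for the Mcl1 line. The sign was that of the neighbours for 19, 19 and 21 of 32 proteasome genes in the 3 line comparisons, in the order KMS18 against MM.1s, KMS18 against RPMI8226 and MM.1s against RPMI8226, beside 66.8%, 67.1% and 66.5% of all genes. In the Mcl1 line it was so for 29 of 32, beside 59.8%. There 33 of the 34 genes lay above 0, so this count largely reflects how many neighbour medians were above 0. The genes named here were chosen after their values were seen.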
